A study of Mus musculus with 8 samples.

Results

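The genes described here encode 8 enzymes of cholesterol synthesis: Hmgcs1, Mvd, Fdps, Fdft1, Sqle, Lss, Cyp51 and Dhcr7. They were chosen by symbol, out of 18193 genes with a symbol of their own on the array, and every probe set annotated to one of them was taken, which gave 21 probe sets. RNA from whole spleens of mice aged 8 weeks was hybridised to Affymetrix mouse expression arrays, with 1 animal per array. The study compared 4 Nix-null mice (Nix-/-), called Nix_KO here, with 4 wild-type mice, called WT. Nix, encoded by Bnip3l, is a protein of the mitochondrial outer membrane through which maturing red cells are known to shed their mitochondria, and the series title names apoptosis and erythropoiesis as its subject. No treatment was given to either genotype. The sources used here do not state strain, sex or how the null allele was made. Arrays are called by the number their titles carry, which is 10, 2, 3 or 6 for Nix_KO and 3, 4, 5 or 6 for WT.

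Cholesterol is built from acetyl-CoA by a chain of enzymes. HMG-CoA synthase (Hmgcs1) acts near its start and mevalonate diphosphate decarboxylase (Mvd) at the end of the mevalonate steps. Farnesyl diphosphate synthase (Fdps) makes the branch-point intermediate that also feeds protein prenylation. Squalene synthase (Fdft1) commits that intermediate to sterols, squalene epoxidase (Sqle) and lanosterol synthase (Lss) form the first sterol, and lanosterol demethylase (Cyp51) and 7-dehydrocholesterol reductase (Dhcr7) act in the trimming towards cholesterol. The transcription factor SREBP-2, encoded by Srebf2, is known to switch these genes on together when membranes are short of sterol, with the escort protein SCAP carrying it to the Golgi and the INSIG proteins holding it back. Dividing cells draw on the chain for new membrane.

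The promoters of these genes are shown because shared control by SREBP-2 is the textbook property of the group. RefSeq promoter windows (GRCm38.p6) matched 5 of the 8 genes in 7 windows, of which Dhcr7 had 3. The 250 bases before each start site were searched on both strands for the sterol regulatory element in the form TCACNCCAC, for the CCAAT box (CCAAT) bound by NF-Y, and for the GC box (GGGCGG) bound by SP1-type factors. Matches did not overlap each other. One window per gene is printed 5′ to 3′, with sterol element and CCAAT matches on either strand in capitals. They lie at chr13:119690101-119690350 (+ strand) for Hmgcs1, chr8:122443423-122443672 (- strand) for Mvd, chr10:76531355-76531604 (+ strand) for Lss, chr5:4104698-4104947 (- strand) for Cyp51 and chr7:143829964-143830213 (+ strand) for Dhcr7. The Dhcr7 window was picked among its 3 because it alone held CCAAT matches.
Hmgcs1: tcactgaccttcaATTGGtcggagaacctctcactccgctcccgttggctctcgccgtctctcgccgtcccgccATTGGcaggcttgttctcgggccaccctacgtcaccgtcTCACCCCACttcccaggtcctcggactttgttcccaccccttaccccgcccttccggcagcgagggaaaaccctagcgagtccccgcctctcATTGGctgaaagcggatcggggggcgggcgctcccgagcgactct
Mvd: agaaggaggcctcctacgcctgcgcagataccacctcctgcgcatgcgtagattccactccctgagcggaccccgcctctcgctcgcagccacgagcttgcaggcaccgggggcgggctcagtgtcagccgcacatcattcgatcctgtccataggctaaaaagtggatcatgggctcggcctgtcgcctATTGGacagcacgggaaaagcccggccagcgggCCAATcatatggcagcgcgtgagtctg
Lss: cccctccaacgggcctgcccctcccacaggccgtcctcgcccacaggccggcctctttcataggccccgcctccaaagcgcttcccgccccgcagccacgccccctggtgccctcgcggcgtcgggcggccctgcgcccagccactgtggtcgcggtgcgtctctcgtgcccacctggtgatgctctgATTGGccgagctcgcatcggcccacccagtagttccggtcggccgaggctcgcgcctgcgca
Cyp51: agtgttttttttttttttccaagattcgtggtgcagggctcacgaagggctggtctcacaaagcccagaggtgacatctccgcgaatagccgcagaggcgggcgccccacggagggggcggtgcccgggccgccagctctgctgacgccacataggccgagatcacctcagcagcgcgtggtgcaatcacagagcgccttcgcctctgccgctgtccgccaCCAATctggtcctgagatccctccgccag
Dhcr7: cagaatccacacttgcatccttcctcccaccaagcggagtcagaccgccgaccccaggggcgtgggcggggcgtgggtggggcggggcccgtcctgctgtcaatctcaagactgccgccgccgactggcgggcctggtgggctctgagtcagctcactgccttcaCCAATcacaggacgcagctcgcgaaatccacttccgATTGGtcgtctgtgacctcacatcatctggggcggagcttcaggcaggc

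Hmgcs1 held the sterol element as TCACCCCAC, from -137 to -129 relative to the start site, with 3 CCAAT matches around it. It was 1 of 7 windows to hold the element, which occurred in 1.05% of 32851 windows of the same length over all genes. CCAAT matches occurred in 5 of the 7 windows, with 2 in Mvd, 2 in the Dhcr7 window shown and 1 each in Lss and Cyp51, against 33.8% of all windows. GC boxes occurred in 6 of the 7, against 32.7% of all windows. A missing match says only that these letters were not in the window.

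The values are intensities from GCRMA, which subtracts background by probe sequence, equalises the arrays and combines the probes into 1 value per probe set. They were taken to log2, so a difference of 1 is a doubling. Testing required a log2 intensity of 5 or more in 4 or more arrays, which kept 15 of the 21 probe sets and at least 1 for each of the 8 genes. The test was limma, its p-values were adjusted by Benjamini-Hochberg over the 22347 probe sets that entered it, and a probe set is called higher or lower where its adjusted p was under 0.05. Of the 6 probe sets left out, 5 read below 5 in every array (1 of Fdps, 2 of Fdft1, 1 of Lss and 1 of Cyp51). The other, Lss probe set 1426913_at, ran from 4.78 to 5.24.

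Of all probe sets tested, 30.0% were called, 12.5% higher and 17.6% lower. The median change of all tested probe sets was -0.12, slightly below 0. Centring every array brought that median to 0.00013, and then 52.4% in place of 41.6% of the called probe sets were higher. The 3 probe sets of Bnip3l are shared with a pseudogene, read between 9.38 and 13.16 in all 8 arrays and did not pass the test. Since the labels do not say which exons were removed, these probe sets give no check of genotype. All 14 tested markers of red cell precursors, all 15 of dividing cells and all 11 of neutrophils and their precursors rose. All 10 of B cells fell, as did 7 of 9 of T cells, 8 of 10 of stroma and endothelium and 3 of 10 of macrophages. The summed intensity of the red cell list ran from 139407 to 179793 in Nix_KO and from 29330 to 76001 in WT arrays, and that of the B cell list from 14779 to 25322 and from 43884 to 53631. In RNA of a whole organ, a change in the number of cells of a type and a change of RNA per cell cannot be told apart, and the part of these cell types in the results below was not tested. RNA of neighbouring organs differed between arrays. The mean log2 intensity of 11 acinar pancreas markers was 13.02 in Nix_KO 3, 12.02 in WT 3 and 9.96 in WT 5, against 5.26 to 7.42 in the other 5 arrays. That of 3 tested liver markers was 10.61 in WT 3 and at most 7.62 elsewhere, and that of 5 fat cell markers was highest in WT 5 and WT 6 (8.997 and 8.985).

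Spleens without Nix had lower levels of Hmgcs1 and Mvd, a higher level of squalene synthase, and a lower level of Dhcr7 whose call was lost in most alternatives. Hmgcs1 and Mvd, of the mevalonate steps, and Dhcr7, which acts late, were lower by 1.79-fold, 1.83-fold and 1.498-fold, each by its brightest probe set. Fdft1 was higher by 1.68-fold. Sqle, Fdps, Lss and Cyp51 did not pass the test. Of the 15 probe sets tested, 5 were lower and 1 was higher, against 30.0% called among all tested (17.6% lower and 12.5% higher). The genotypes did not overlap for 6 of the 15, against 34.6% of all probe sets tested. By gene, 4 of 8 were called (3 lower and 1 higher), against 34.4% of 11027 genes (21.3% lower and 13.1% higher), and their median change was -0.26 against -0.15 over all genes. That median rests on single arrays: it was -0.048 without Nix_KO 3, against -0.11 over all genes, so that the order turned, and -0.45 without Nix_KO 6, against -0.18. With so few probe sets and genes, these shares do not set the group apart from the rest of the array. Every call in the 8 genes ended when several arrays were left out at once. Without the 3 arrays highest in pancreas markers (Nix_KO 3, WT 3 and WT 5), limma called 0 of the 15 (7 had an unadjusted p under 0.05) and 690 of the 22347 probe sets. Without WT 5 and WT 6, which had the most fat cell signal, limma also called 0 of the 15 (5 at an unadjusted p under 0.05), in a fit added after the values were known. These arrays were also the lowest of the WT arrays in neutrophil markers (mean log2 7.87 and 7.43, against 9.96 in WT 3 and 9.37 in WT 4). The same held for markers of dividing cells and red cell precursors. Both fits had fewer arrays. Their changes were -0.89 and -0.77 for Hmgcs1, -0.77 and -0.62 for Mvd, -0.45 and -0.43 for Dhcr7, and 0.80 and 0.86 for Fdft1.

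**Figure D1:**
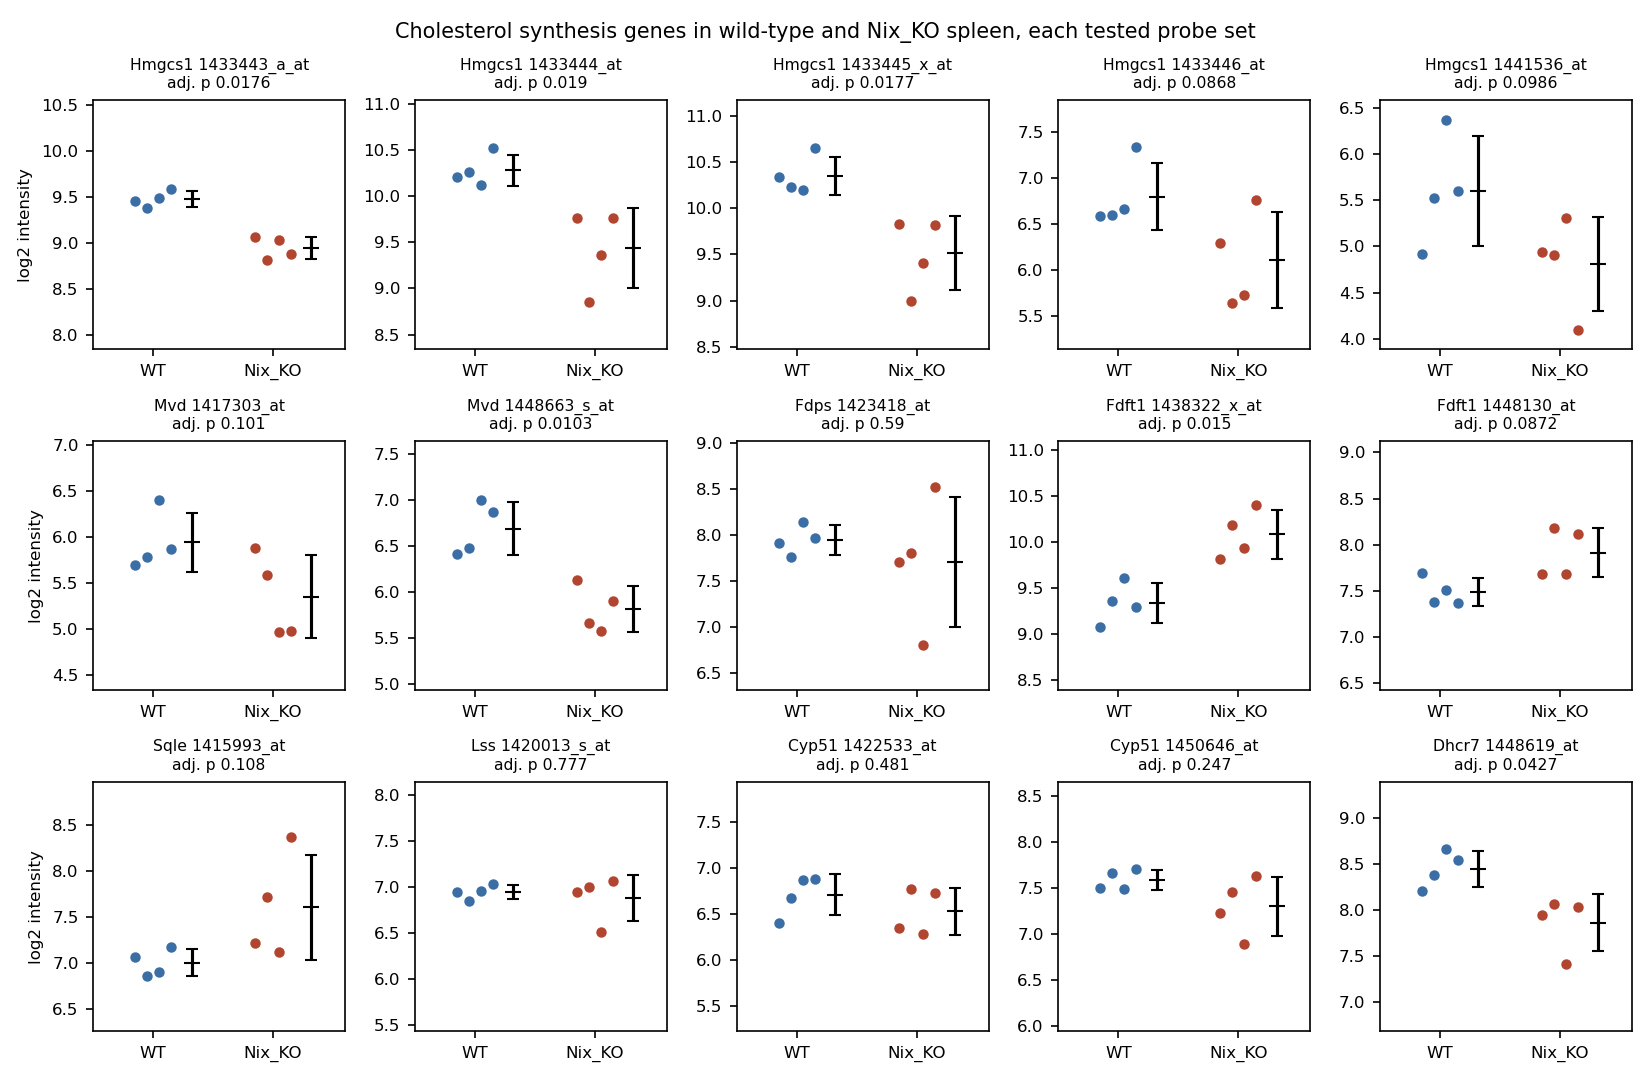
Log2 intensity of the 15 tested probe sets of the 8 genes. Each point is 1 array (WT 3, 4, 5 and 6 in blue and Nix_KO 10, 2, 3 and 6 in red, from left to right), the black bar is the mean with the SD of the genotype (n = 4), and every panel spans the same number of log2 units. The genotypes are apart for 3 Hmgcs1 probe sets, 1 of Mvd, 1 of Fdft1 and the 1 of Dhcr7.

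Hmgcs1 makes HMG-CoA, the substrate of the step at which statins act, and it had the most probe sets, 5, all of them tested. Its brightest, 1433445_x_at, read 9.83, 8.99, 9.41 and 9.82 in Nix_KO 10, 2, 3 and 6, and 10.34, 10.23, 10.19 and 10.65 in WT 3, 4, 5 and 6. Every Nix_KO array lay below every WT array, with Nix_KO 2 lowest and WT 6 highest. The means were 9.51 ± 0.40 and 10.35 ± 0.21 (SD, n = 4 each), a change of -0.84 ± 0.22 (SE) with a limma adjusted p of 0.0177. Probe set 1433444_at gave nearly the same picture, with 9.76, 8.86, 9.36 and 9.76 in Nix_KO against 10.21, 10.27, 10.13 and 10.53 in WT arrays. Its change was -0.84 ± 0.22 (limma adjusted p = 0.0190). Probe set 1433443_a_at moved less, from 9.46, 9.38, 9.49 and 9.58 in WT to 9.07, 8.81, 9.03 and 8.89 in Nix_KO arrays, again with no overlap. Its change was -0.53 ± 0.13 (limma adjusted p = 0.0176). The dimmer 1433446_at (-0.69 ± 0.28, limma adjusted p = 0.0868) and 1441536_at (-0.79 ± 0.33, limma adjusted p = 0.0986) had overlapping genotypes and did not pass. The 5 changes were all negative. None of the 10 differences between pairs of these probe sets passed an exact permutation test, in which 4 arrays against 4 cannot go below 0.0286. After adjustment over 13 pairs of probe sets, a single pair at that floor could not pass. The result therefore does not show that the probe sets changed alike. Leaving out WT 6 ended the 3 calls, with changes of -0.74, -0.76 and -0.49 and limma adjusted p of 0.0578, 0.0608 and 0.0624. Leaving out WT 4 did so for 1433444_at alone (-0.85, limma adjusted p = 0.0515), while 1433446_at passed without Nix_KO 6 (-0.91, limma adjusted p = 0.0255) and 1441536_at without WT 3 (-1.02, limma adjusted p = 0.0464).

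Mvd removes a carboxyl group to give isopentenyl diphosphate, the building block of all isoprenoids. Its probe set 1448663_s_at read 6.13, 5.66, 5.58 and 5.90 in Nix_KO 10, 2, 3 and 6, and 6.41, 6.48, 6.99 and 6.87 in WT 3, 4, 5 and 6. The highest Nix_KO array, Nix_KO 10, was still below the lowest WT array, WT 3. The means were 5.82 ± 0.25 and 6.69 ± 0.29 (SD, n = 4 each), and the change was -0.87 ± 0.19 (limma adjusted p = 0.0103). This call was kept whichever single array was left out. The dimmer 1417303_at read 5.88, 5.59, 4.97 and 4.98 against 5.70, 5.79, 6.41 and 5.87. Here Nix_KO 10 lay above 3 of the 4 WT arrays, the genotypes overlapped, and the change of -0.59 ± 0.25 did not pass (limma adjusted p = 0.101). Without Nix_KO 10 it was -0.76, with a limma adjusted p of 0.0386.

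Fdps, at the branch between sterols and prenyl groups, was the most scattered of the 8 genes in Nix_KO spleens. Its tested probe set 1423418_at read 7.70, 7.81, 6.81 and 8.53 in Nix_KO 10, 2, 3 and 6, and 7.91, 7.76, 8.14 and 7.97 in WT 3, 4, 5 and 6. Nix_KO 3 was the lowest and Nix_KO 6 the highest of all 8 arrays, so that the WT values lay inside the Nix_KO range. The change was -0.24 ± 0.31 (limma adjusted p = 0.590), with a 95% interval from -0.93 to 0.46. Without Nix_KO 3 it turned to 0.07, and without Nix_KO 6 it was -0.51.

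Fdft1 makes squalene, the first intermediate used for sterols alone, and it was the gene of the 8 that rose. Its bright probe set 1438322_x_at read 9.81, 10.18, 9.93 and 10.41 in Nix_KO 10, 2, 3 and 6, and 9.08, 9.37, 9.62 and 9.30 in WT 3, 4, 5 and 6. All Nix_KO arrays lay above all WT arrays, the closest being Nix_KO 10 and WT 5. The means were 10.08 ± 0.27 and 9.34 ± 0.22 (SD, n = 4 each), a change of 0.74 ± 0.18 (limma adjusted p = 0.0150), and the call was kept whichever single array was left out. The suffix x marks probe sets in which some probes may match other sequences. The second probe set, 1448130_at, read 7.68, 8.18, 7.68 and 8.11 against 7.69, 7.38, 7.51 and 7.37. WT 3 reached the level of the lower Nix_KO arrays there, and the change of 0.43 ± 0.17 did not pass (limma adjusted p = 0.0872). The difference of 0.32 between the changes of the 2 probe sets had an exact permutation p of 0.0571 (two-sided, adjusted p = 0.743 over 13 pairs of probe sets). Fdft1 lies on chromosome 14, as does Bnip3l, the gene inactivated in these mice, and within 20 Mb of it. In that window 37.9% of 203 tested genes were called, 33 higher and 44 lower, near the 34.4% of all genes, and the part of this location in the Fdft1 result was not tested.

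Sqle adds oxygen to squalene and is a known control point of the chain. Its probe set 1415993_at read 7.22, 7.71, 7.12 and 8.36 in Nix_KO 10, 2, 3 and 6, and 7.07, 6.85, 6.90 and 7.17 in WT 3, 4, 5 and 6. Nix_KO 6, 2 and 10 stood above all WT arrays, while Nix_KO 3 fell between WT 3 and WT 6. The change was 0.60 ± 0.26 and did not pass (limma adjusted p = 0.108), with a 95% interval from 0.02 to 1.19, and it was 0.35 without Nix_KO 6 (limma adjusted p = 0.184). Lss closes the sterol rings. Its probe set 1420013_s_at read 6.94, 6.999, 6.51 and 7.06 against 6.94, 6.84, 6.96 and 7.04, with Nix_KO 3 lowest, Nix_KO 6 highest and the other arrays between them. The change was -0.07 ± 0.16 (limma adjusted p = 0.777), with a 95% interval from -0.42 to 0.29, and it turned to 0.06 without Nix_KO 3, and to the same value with quantile normalization and with each array centred on its median.

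Cyp51, a cytochrome P450, takes the methyl group from carbon 14 of lanosterol. Its brighter probe set 1450646_at read 7.23, 7.46, 6.89 and 7.63 in Nix_KO 10, 2, 3 and 6, and 7.499, 7.67, 7.49 and 7.70 in WT 3, 4, 5 and 6. Nix_KO 6 lay among the WT arrays and the other 3 Nix_KO arrays below them, and the change of -0.29 ± 0.18 did not pass (limma adjusted p = 0.247). It was -0.15 without Nix_KO 3, and with limma array weights it was called lower (-0.42, adjusted p = 0.0474). The second, 1422533_at, changed by -0.18 ± 0.18 (limma adjusted p = 0.481). Dhcr7 reduces 7-dehydrocholesterol to cholesterol. Its only probe set, 1448619_at, read 7.95, 8.07, 7.41 and 8.04 against 8.21, 8.39, 8.66 and 8.54. All Nix_KO arrays lay below all WT arrays, Nix_KO 3 by far the lowest. The means were 7.87 ± 0.31 and 8.45 ± 0.20 (SD, n = 4 each), and the change was -0.58 ± 0.19 (limma adjusted p = 0.0427). Among the 6 calls it was the one lost under the most single-array omissions. It was lost without Nix_KO 10 (-0.61, limma adjusted p = 0.0596), Nix_KO 3 (-0.43, limma adjusted p = 0.0800), WT 4 (-0.60, limma adjusted p = 0.0882), WT 5 (-0.51, limma adjusted p = 0.108) or WT 6 (-0.55, limma adjusted p = 0.110), with the sign unchanged. With all arrays the adjusted p was also above 0.05 with no filter (0.0589), quantile normalization (0.0813), centring (0.102) and a test with unequal variances and no moderation (0.0942). The call was lost in 12 of 18 alternatives in all. That count includes a fit with a block for the numbers in the titles, in which few calls could be reached for any gene.

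Whether the steps of the chain changed by unequal amounts was tested for each pair of genes, 28 in all, on the difference between their log2 intensities within each array. The change of Hmgcs1 minus that of Fdft1 was -1.58, that of Mvd minus Fdft1 -1.61, and that of Fdft1 minus Dhcr7 1.33. For 15 of the 28 pairs the exact permutation p (two-sided) was 0.0286, the smallest that 4 arrays against 4 can give. Fdft1 and Sqle each differed in this way from Hmgcs1, Mvd, Fdps, Lss, Cyp51 and Dhcr7, and Lss from Hmgcs1, Mvd and Dhcr7. Adjusted over the 28 pairs these 15 exact permutation p-values became 0.0533, so 0 pairs passed; with quantile normalization, and with 32 added to every intensity, 17 pairs reached the smallest value and passed at an adjusted exact permutation p of 0.0471 (both tried after seeing the data). The change of Fdft1 minus that of Sqle was 0.14 (exact permutation p = 0.600) and that of Hmgcs1 minus Mvd 0.03 (exact permutation p = 0.857), which does not show that these pairs changed alike.

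**Figure D2:**
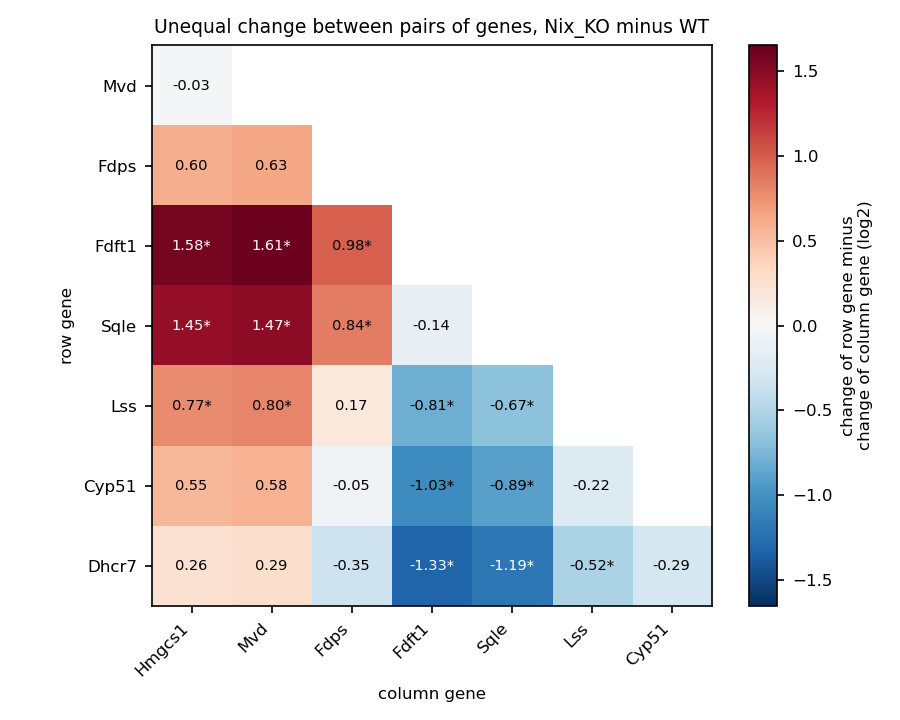
Difference between the changes of 2 genes (log2, Nix_KO minus WT; row gene minus column gene) for the 28 pairs of the 8 genes, each by its brightest probe set; a star marks an exact permutation p under 0.05 before adjustment. The Fdft1 and Sqle rows are red against the mevalonate enzymes; for Hmgcs1 minus Fdft1 and Hmgcs1 minus Sqle the differences are -1.58 and -1.45.

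With genotype means removed, several of the 8 genes moved together over the 8 arrays, among them Fdps, Sqle, Lss and Cyp51 (r of 0.73 to 0.91). These r pool both genotypes, and for these genes Nix_KO 3 and Nix_KO 6 had the widest deviations. In WT arrays alone r was not computed. There Fdps and Cyp51 deviated in opposite directions in WT 4 (-0.19 and 0.08) and WT 5 (0.20 and -0.10). Each array's deviation from its genotype mean was lowest in Nix_KO 3 for 6 of the 8 genes among Nix_KO arrays, and highest in Nix_KO 6 for 5 of the 8. Averaged over the 8 genes, the deviation was -0.39 in Nix_KO 3 and 0.37 in Nix_KO 6, against -0.11 to 0.12 over the WT arrays. The widest was Fdps, at -0.90 in Nix_KO 3 and 0.82 in Nix_KO 6. The correlation of deviations between pairs of genes over the 8 arrays had a median r of 0.54, from -0.17 for Hmgcs1 with Fdft1 to 0.91 for Fdps with Lss, and 16 of 28 pairs were over 0.5. Hmgcs1 was over 0.5 only with Mvd (r = 0.51), and with the other genes it ran from -0.17 (Fdft1) to 0.30 (Fdps). The points share arrays and their normalization. The r between pairs of other genes was not computed, so these values do not set the group apart. The SD was larger in Nix_KO than in WT for 7 of the 8 genes, Mvd being the exception, and by 4.41 times for Fdps and 3.89 times for Sqle, while it was larger in Nix_KO for 72.2% of all 11027 genes. Nix_KO 3 was also the array highest in pancreas markers, 5.48 above its genotype mean, and over the 8 arrays the mean deviation of the 8 genes had r = -0.73 with that of the pancreas list, 0.70 with macrophage markers and 0.65 with stromal markers. The part of these tissues in the array-to-array movement was not tested.

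**Figure D3:**
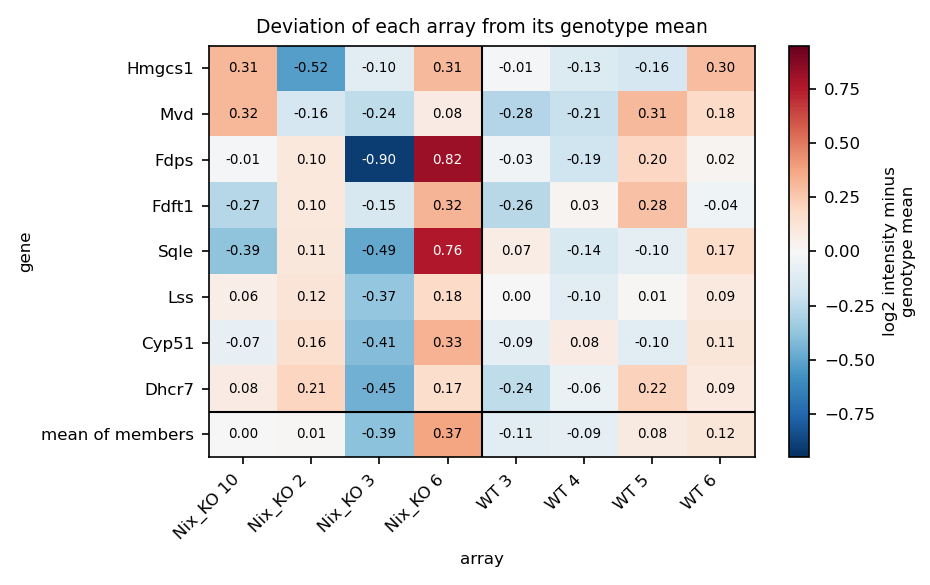
Log2 intensity of the 8 genes (rows) in each array (columns), minus the mean of the array's genotype; red is above and blue below that mean. The Nix_KO 3 column is blue throughout and the Nix_KO 6 column red throughout, with Fdps at -0.90 and 0.82.

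Among 11019 other genes, the 8 whose deviations were most like the mean deviation of the described genes were Cd99 and Surf2 (r = 0.99 each), Ipo9, Dnajc4, Entpd5, Sirt2 and Smn1 (r = 0.98 each) and Ppm1f (r = 0.97), each over 8 arrays. The median r over the other genes was 0.20, and 167 of them were over 0.9.

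Of 11 other enzymes of the chain that were tested, 2 rose, 0 fell and 9 were not called, with a median change of 0.11. Over all genes 13.1% rose and 21.3% fell. Counts this small do not set these enzymes apart from all genes. Idi1, which isomerises isopentenyl diphosphate just after Mvd, rose by 0.59 ± 0.15 (limma adjusted p = 0.0157), and its second probe set was called higher too; without WT 4 its change was 0.54 (limma adjusted p = 0.0572). Lbr, a sterol reductase that is also the lamin B receptor of the nuclear envelope, rose by 0.72 ± 0.15 (limma adjusted p = 0.00787). So the steps before Fdps held both falls (Hmgcs1 and Mvd) and a rise (Idi1).

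Of 10 tested genes for the control of SREBP, 1 rose and 2 fell, against 13.1% and 21.3% of all genes, with a median change of -0.26. Srebf2, which encodes SREBP-2, read 8.49, 8.21, 8.14 and 8.40 in Nix_KO 10, 2, 3 and 6, and 8.76, 9.23, 9.87 and 9.23 in WT 3, 4, 5 and 6. Its genotypes did not overlap, and the change was -0.96 ± 0.23 (limma adjusted p = 0.0130). A second Srebf2 probe set changed by -0.51 and did not pass (limma adjusted p = 0.104). Scap, the escort of SREBP, fell by 0.76 on the log2 scale (SE 0.18, limma adjusted p = 0.0145). Both calls held without any single array and were lost with that unequal-variance test (adjusted p = 0.0838 for Srebf2 and 0.0648 for Scap). Rnf139, a ubiquitin ligase of the endoplasmic reticulum, rose by 1.33 ± 0.28 (limma adjusted p = 0.00850), and its other probe set was not called. Srebf1, which encodes SREBP-1, changed by -0.32 ± 0.16 (limma adjusted p = 0.158). Insig2 changed by -0.21 ± 0.15 (limma adjusted p = 0.306). Insig1 changed by -0.08 ± 0.25 (limma adjusted p = 0.834), with a sign that turned under quantile normalization and under centring (0.04 each) and without Nix_KO 2 (0.01) or Nix_KO 3 (0.04).

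**Figure D4:**
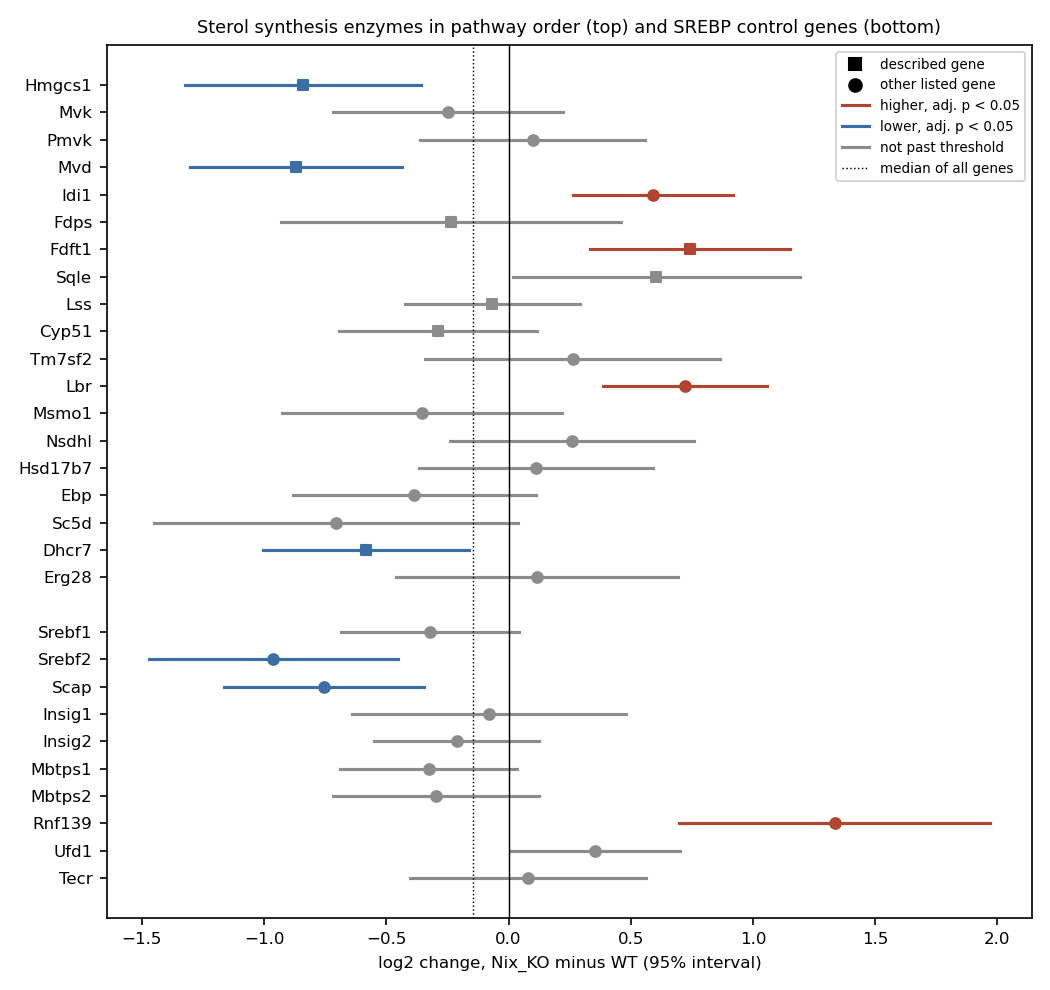
Log2 change (Nix_KO minus WT) with its 95% interval for the tested enzymes of sterol synthesis in pathway order (top) and 10 tested SREBP control genes (bottom), each by its brightest probe set; squares are the 8 described genes and the dotted line is the median of all genes, -0.15. Hmgcs1, Mvd, Dhcr7, Srebf2 and Scap lie to the left in blue, and Idi1, Fdft1, Lbr and Rnf139 to the right in red.

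Among genes that handle cholesterol after its synthesis, the shares called lower can be set against 21.3% of all genes. Of 9 tested genes of uptake and lysosomal release, 0 rose and 2 fell, with a median change of -0.0011. They were Npc2, which hands cholesterol out of the lysosome (-0.57 ± 0.14, limma adjusted p = 0.0137), and Stard3, a late endosomal sterol carrier (-0.44 ± 0.15, limma adjusted p = 0.0474). Of the 3 tested probe sets of Npc2, 2 were called lower and 1 was not called. Stard3 lost its call whichever single array was left out, with changes from -0.49 to -0.36. Of 10 tested genes of storage, efflux and oxysterols, 0 rose and 3 fell, with a median of -0.58. They were Apoe, a lipoprotein component abundant in macrophages (-1.44 ± 0.35, limma adjusted p = 0.0146), Cyp27a1, which makes 27-hydroxycholesterol (-1.003 ± 0.23, limma adjusted p = 0.0109), and the sterol exporter Abcg1 (-0.56 ± 0.16, limma adjusted p = 0.0275). A second Abcg1 probe set changed by -0.40 and did not pass (limma adjusted p = 0.0950). The call of the brighter Abcg1 probe set was lost without Nix_KO 3 (-0.50), WT 4 (-0.54), WT 5 (-0.47) or WT 6 (-0.58). Of 10 macrophage markers 3 fell, with a summed intensity from 26416 to 38642 in Nix_KO and from 41870 to 48610 in WT arrays, and their part in these falls was not tested.

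Of 12 tested genes of the isoprenoid branch, which leaves the chain at Fdps, 2 rose and 1 fell, with a median change of -0.07. Over all genes 13.1% rose and 21.3% fell. Fntb, the beta subunit of farnesyltransferase, rose by 1.37 ± 0.24 (limma adjusted p = 0.00423). The subunits of the Rab prenyltransferase went opposite ways, Rabggta by -0.63 ± 0.18 (limma adjusted p = 0.0246) and Rabggtb by 0.71 ± 0.22 (limma adjusted p = 0.0383). Each lost its call in 5 of the 8 fits that left out 1 array: both without Nix_KO 3 (-0.59 and 0.68), WT 4 (-0.63 and 0.74), WT 5 (-0.54 and 0.57) or WT 6 (-0.63 and 0.65), Rabggta also without Nix_KO 2 (-0.55) and Rabggtb without Nix_KO 6 (0.59).

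Fatty acid synthesis, which SREBP-1 is known to drive, had 2 rises and 5 falls among 13 tested genes, with a median change of -0.43. Falls outnumbered rises over all genes too (21.3% and 13.1%). Scd1, the stearoyl-CoA desaturase, fell by 1.37 on the log2 scale (SE 0.18, limma adjusted p = 0.00249). Acly, which supplies cytosolic acetyl-CoA to both pathways, fell by 0.81 (SE 0.14, limma adjusted p = 0.00406), and the elongase Elovl5 by 0.99 (SE 0.20, limma adjusted p = 0.00754). Fatty acid synthase, Fasn, fell by 0.90 (SE 0.24, limma adjusted p = 0.0215), a call lost without WT 5 (-0.76) or WT 6 (-0.85). Thrsp, a lipogenic regulator found in fat and liver, fell by 1.62 (SE 0.45, limma adjusted p = 0.0251), with 2 other probe sets not called (-0.62 and 0.19). It read 7.37, 5.69, 8.09 and 7.52 in WT 3, 4, 5 and 6, the lowest lying inside the Nix_KO range of 5.16 to 5.91. The mean log2 level of the 5 tested fat cell markers deviated from its WT mean by -0.13, -1.07, 0.60 and 0.59 in the same arrays, lowest in WT 4 as well. Of these 5, limma called 0 (0 at an unadjusted p under 0.05). Their summed intensity ran from 1913 to 3644 in Nix_KO and from 1397 to 4011 in WT arrays. Of 3 tested liver markers, limma called 1 (2 at an unadjusted p under 0.05). The called one, Cyp2e1, changed by -2.07 (limma adjusted p = 0.0273). It read 8.73, 6.32, 8.95 and 8.82 in WT 3, 4, 5 and 6, lowest in WT 4 too. The part of fat and liver tissue in the Thrsp result was not tested. Thrsp lost its call without Nix_KO 2 (-1.52), WT 3 (-1.55), WT 5 (-1.31) or WT 6 (-1.50). The rises were the desaturases Fads1 (1.25 ± 0.18, limma adjusted p = 0.00268) and Fads2 (0.69 ± 0.21, limma adjusted p = 0.0368), the latter named after its value was seen. The other Fads2 probe set changed by 0.74 and did not pass (limma adjusted p = 0.113). The called one lost its call without Nix_KO 2 (0.70), WT 4 (0.64), WT 5 (0.69) or WT 6 (0.66).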

How the data were processed

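RNA from 8 spleens, 4 per genotype, was hybridised to Affymetrix arrays, 1 animal per array. The deposited values are linear intensity values that the authors made with GCRMA, per the submitters' processing notes; its version and settings are not given in the sources used here. From these, log2 was taken with no offset, 64 control probe sets were left out of 45101, and 22347 with log2 intensity of at least 5 in at least 4 arrays were fitted with limma 3.58.1 (R 4.3.3) without covariates and with Benjamini-Hochberg adjustment at 0.05. The script was tested on simulated data. For counts by gene, the probe set with the highest mean stood for the gene; symbols came from the platform annotation. Differences between probe sets or genes used exact permutation over arrays. The number of arrays limits the precision, and p-values set the difference between genotypes against the spread between these animals.

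All probe sets of the 8 genes are named. In each other list, up to 6 genes past the threshold with the smallest adjusted p are named, with Srebf1, Srebf2, Scap, Insig1 and Insig2, and 8 genes by likeness; Fads2 was added afterwards. The genes, lists and markers were chosen with earlier results of these data known. Alternatives were filters, quantile normalization, centring, an offset of 32, array weights, a Welch test, means of probe sets, a replicate block and left-out arrays.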

Additional observations from a re-analysis of the deposited data

Results flagged for a closer look

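In 42 sets of 4 arrays (each probe set of the 8 genes in each genotype), 4 had 1 array far from the other 3; chance alone gives about 1 in 20. Hmgcs1 probe set 1433446_at read 7.34 in WT 6 against 6.59 to 6.67 in the other WT arrays. The other 3 were probe sets below the filter, all high in Nix_KO 2: Cyp51 1422534_at read 3.18 against 2.81 to 2.86, Fdft1 1438918_at read 2.96 against 2.67 to 2.70, and Fdft1 1438919_x_at read 3.29 against 2.67 to 2.73.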

How the results depend on the processing

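Of the 15 tested probe sets, 6 were called (1 higher, 5 lower). Centring each array left 3 lower. A Welch test left 2 (0 higher, 2 lower), with 2174 in the whole table (1130 higher, 1044 lower) in place of 6711 (2789 and 3922). Leaving out 1 array gave 2 to 7 calls in the 8 genes (1 to 1 higher, 1 to 6 lower) and 3996 to 6993 in the whole table (1889 to 2772 higher, 2096 to 4221 lower). The fewest in the 8 genes came without WT 6 (2, of which 1 lower), and without WT 4 there were 3 lower; over the table, 3996 were called without WT 6 and 4075 without WT 4, and without WT 5 there were 2529 lower. Without Nix_KO 3, WT 3 and WT 5, 0 were called in the 8 genes (0 higher, 0 lower) and 690 in the table (500 higher, 190 lower). A fit without WT 5 and WT 6 was added with the values known, and its numbers were 0 (0 and 0) in the 8 genes and 496 (398 and 98). These 2 fits have fewer arrays.

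The titles share the numbers 3 and 6 between genotypes, with r of 0.25 and 0.15 between same-numbered deviations. With fewer than 3 such pairs, these values cannot tell whether the arrays were paired. A fit with the replicate block called with limma 0 probe sets of the 8 genes (0 higher, 0 lower, and 5 at an unadjusted p under 0.05) and 1 in the table (0 higher, 1 lower). In that fit only the arrays numbered 3 and 6 inform the genotype change. Few calls could be reached that way, so its lost calls, above, here and below, are no measure of dependence on the processing.

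Pairs of genes that passed went from 0 to 17 with quantile normalization and 17 with the offset of 32. Lss turned positive with quantile normalization (0.0604), with centring (0.0559), without Nix_KO 3 (0.0557), and without Nix_KO 3, WT 3 and WT 5 (0.0605); leaving out 1 array gave -0.128 to 0.0557. Fdps did so without Nix_KO 3 (0.0657; range without 1 array -0.508 to 0.0657) and without those 3 arrays (0.149). Insig1 turned positive with quantile normalization (0.0369), with centring (0.0439), without Nix_KO 2 (0.00658), without Nix_KO 3 (0.0427; range without 1 array -0.317 to 0.0427), with the replicate block (0.212) and without WT 5 and WT 6 (0.0609). The cause of these changes was not tested. Of 20 called genes named from the other lists, 13 lost their call with the Welch test, 20 with the replicate block, 20 without Nix_KO 3, WT 3 and WT 5, 19 without WT 5 and WT 6, and 1 to 7 without 1 array; 0 changed sign. Means of a gene's probe sets gave the same calls for the 8 genes.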
